A study of Mus musculus with 3 samples.

Results

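Ppy, Pyy, Ghrl, Tspan8, Vsig1 and Folr1 were followed through the cells of mouse pancreatic islets. They are 6 of the 32285 genes in the deposited count tables, taken by their symbols as hormone genes and candidate marker genes of the gamma cell, the islet cell that makes pancreatic polypeptide. The islets came from mice at 9 months in 3 groups of 1 single-cell library each, made with 10x Genomics Chromium 3′ chemistry. They were a wild type (WT), an ASF-KO and an SC35-KO, where ASF is an older name of the splicing factor SRSF1 and SC35 one of SRSF2. Islets were freed with collagenase P perfused through the bile duct, picked by hand, dispersed with trypsin and passed through a 40 um sieve. The labels give no strain, no number of mice per library, no exons deleted and no cell type or promoter that drives the deletion, so a group is 1 library and neither knockout is known here to be restricted to any cell. No treatment other than the age is named.

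The polypeptides of the PP-fold family, pancreatic polypeptide (Ppy) and peptide YY (Pyy), are short amidated peptides cut from larger precursors, and they act on the Y receptors of neuropeptide Y. Pancreatic polypeptide is the defining product of gamma cells, while peptide YY is best known from the gut and is also made in islet cells. Ghrelin (Ghrl) is the acylated hunger hormone of the stomach, made in the islet by rare epsilon cells and sensed by the receptor Ghsr. Tspan8 encodes a tetraspanin of the cell surface, Vsig1 an immunoglobulin-domain junction protein and Folr1 a folate receptor.

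The 3 libraries held 10266 to 13919 barcodes and 148320213 to 154099078 UMIs (unique molecular identifiers, 1 per captured RNA molecule), and 7082 to 10799 cells remained after filtering and doublet removal. The cell filter removed far more barcodes from the library labelled ASF-KO (5095 of 12496) than from WT (978 of 10266) or the library labelled SC35-KO (2234 of 13919). Any pair of libraries shared 11 to 28 cell barcodes. In all that follows, 3 values in a row stand in the order WT, library labelled ASF-KO, library labelled SC35-KO, called library order. Levels outside the hormones are given in other-gene CPM, the UMIs of a gene per 1000000 UMIs of all genes but the islet hormones and the mitochondrial genes. Srsf1 was at 90.2, 154 and 130 other-gene CPM in alpha cells, and Srsf2 at 64.6, 135 and 78.3. Neither gene was lower in the library labelled for its loss, in alpha, beta, delta or gamma cells. The 3′ reads may lie outside a deleted part, so these values do not check the labels.

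Cells were sorted into classes by the hormone that filled their UMIs. Beta cells had at least 20% insulin (Ins1 and Ins2), alpha cells at least 3% Gcg and delta cells at least 3% Sst, each without the other 2, and these 3 gates used none of the 6 genes. Gamma cells had at least 2% Ppy and were below all 3 of those gates, so their Ppy is a description and was not tested. The gates held 289, 126 and 321 gamma cells in library order, 724, 629 and 1533 delta cells, 1439, 1498 and 2850 alpha cells, and 4858, 3980 and 5140 beta cells. Endothelial cells (652, 421 and 382) and immune cells (270, 40 and 80), picked by their own surface and signalling genes, served as classes that should lack islet hormones. As a check of the delta gate, Hhex, the delta cell regulator, stood at 314, 393 and 382 other-gene CPM in delta cells.

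Ppy and Pyy lie side by side, in the same direction, and their promoters are shown because both genes were abundant in the same cell classes. In the mouse build GRCm38.p6 (RefSeq), Ppy covers chr11:102099931-102101319 and Pyy chr11:102106676-102107832, both on the minus strand, with 5356 bases and no annotated gene between them. RefSeq promoter entries matched 5 of the 6 genes, all but Folr1. The 150 bases before each start are written 5′ to 3′ on the minus strand, from chr11:102101320-102101469 for Ppy and chr11:102107833-102107982 for Pyy, with 2 motifs in capitals: TATAA, the core of a TATA box, and TGCTGA, the core of the site of MAF factors.
Ppy: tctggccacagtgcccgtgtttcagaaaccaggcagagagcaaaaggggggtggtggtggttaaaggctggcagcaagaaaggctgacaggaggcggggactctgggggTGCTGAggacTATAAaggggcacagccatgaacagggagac
Pyy: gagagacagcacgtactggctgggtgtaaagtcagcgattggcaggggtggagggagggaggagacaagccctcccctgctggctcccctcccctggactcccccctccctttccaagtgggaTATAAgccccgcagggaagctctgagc
TATAA ended 27 bases before the start of Ppy and 23 before that of Pyy. TGCTGA was found 36 to 41 bases before the Ppy start and not in the Pyy window. Searched on both strands, TATAA was in 14.2% of 32851 promoter windows of that length and TGCTGA in 10.1%, and the motifs do not overlap each other. A match describes the letters and is not a measured binding site.

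Ppy, the hormone that defines gamma cells, made up 38.2%, 31.7% and 46.3% of the UMIs of gamma cells in library order. Delta cells gave 3.16%, 3.02% and 3.62% to Ppy, and alpha cells 2.87%, 1.45% and 2.89%. Beta cells gave 0.231%, 0.0914% and 0.216%. The classes thus fell in 3 steps, gamma far above delta and alpha, and these far above beta. A 3′ library counts molecules without regard to length, so all levels here are compared as UMIs.

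Ppy was also present where it should be absent, at 0.109%, 0.0681% and 0.116% of the UMIs of endothelial cells and at 0.0995%, 0.0687% and 0.0900% of those of immune cells. The 2 classes gave like values, and in both the library labelled ASF-KO was the lowest. The median beta cell, at 0.0546%, 0.0122% and 0.0391%, was below the median endothelial cell, at 0.0970%, 0.0610% and 0.106%. Insulin fills most of a beta cell's UMIs. On the scale of other-gene CPM, beta cells below 2% Ppy held 1903, 1175 and 2211 against 1171, 757 and 1270 in endothelial cells, so the order of beta and endothelial cells depends on the scale.

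Pyy was spread more evenly over the non-beta cells. It made up 11.2%, 11.7% and 10.1% of the UMIs of gamma cells. Delta cells gave it 4.72%, 5.11% and 4.45%, and alpha cells 4.68%, 3.46% and 4.04%. Delta and alpha values overlapped, and gamma values were above both in all 3 libraries. Beta cells were far lower, at 0.144%, 0.109% and 0.136%, with endothelial cells at 0.0667%, 0.0418% and 0.0690%.

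**Figure D1:**
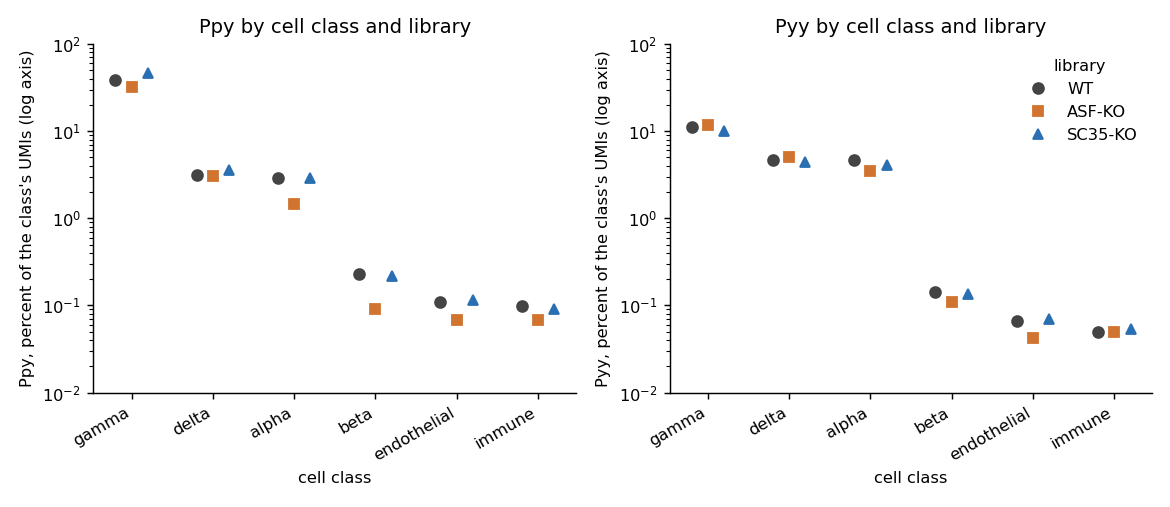
Share of the UMIs of each cell class that is Ppy (left) or Pyy (right), in percent on a log axis, 1 point per library. Ppy in gamma cells, which the gate chose by Ppy, lies between 31.7% and 46.3%. Alpha and delta cells lie near each other for both genes, and beta cells lie close to the endothelial and immune values.

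Because the classes differ in size, most of a hormone's RNA need not sit in the class where it is most concentrated. Gamma cells held 64.3%, 53.4% and 58.9% of all Ppy UMIs of the kept cells. Alpha cells held 40.5%, 44.5% and 50.1% of all Pyy UMIs, more than the 28.6%, 18.2% and 20.3% of gamma cells in every library. Delta cells held 15.9%, 22.9% and 20.4% of Pyy.

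The gene for the tetraspanin Tspan8 marked gamma and delta cells together. It reached 794, 893 and 1614 in gamma cells and 482, 557 and 736 in delta cells, in other-gene CPM. Alpha cells held 44.9, 39.0 and 77.0 and beta cells 37.4, 35.5 and 71.2, close to the 29.3, 22.5 and 50.6 of endothelial cells. Immune cells were lower still, at 2.35, 0 and 7.35 from 3, 0 and 2 UMIs.

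Folr1, the folate receptor gene, reached 613, 624 and 581 other-gene CPM in gamma cells and 263, 345 and 266 in delta cells. Alpha cells held 82.9, 86.9 and 81.1 and beta cells 71.2, 90.2 and 76.0. These were all above the 6.95, 5.99 and 2.02 of endothelial cells. The beta gate, which held most of the endocrine cells, had 46.8%, 52.2% and 34.8% of all Folr1 UMIs.

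Vsig1 was the sparsest of the surface genes, with 29, 4 and 24 UMIs in gamma cells, or 4.85 to 17.0 other-gene CPM. No other endocrine class exceeded 1.25 in any library. Endothelial and immune cells had no UMI in any library. The lowest of these values, from 4 UMIs in the library labelled ASF-KO, has an exact 95% Poisson interval of 1.32 to 12.4.

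**Figure D2:**
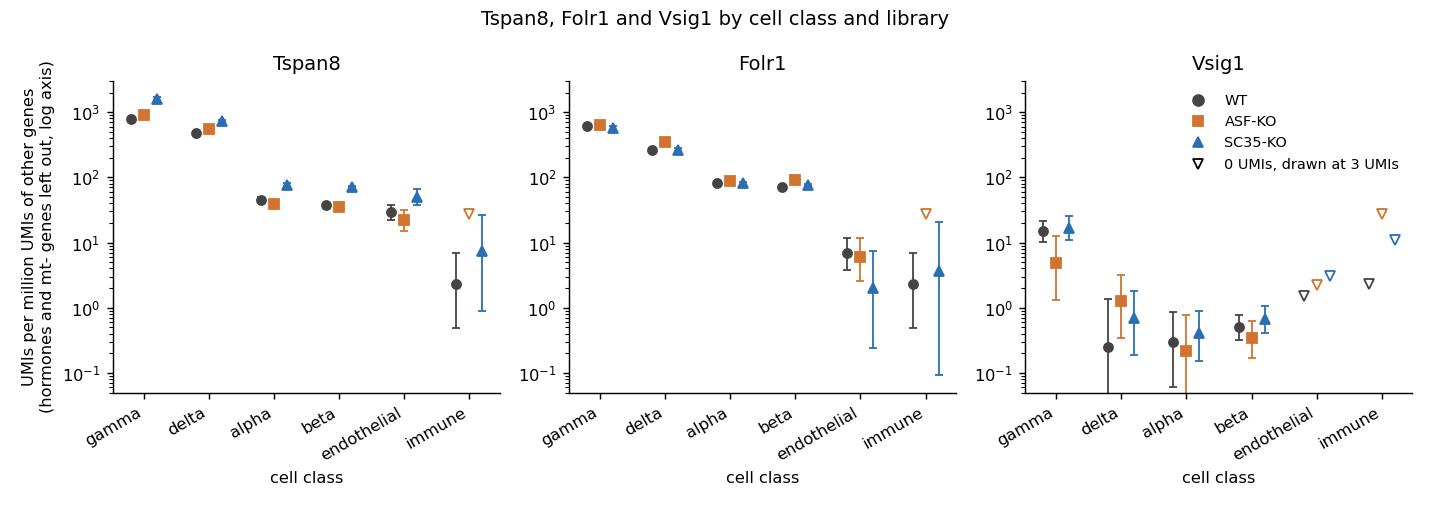
Tspan8, Folr1 and Vsig1 by cell class in other-gene CPM (UMIs scaled to the UMIs of all genes but hormones and mitochondrial genes), on a log axis, 1 point per library with exact 95% Poisson intervals that cover counting error only. Open triangles mark classes with 0 UMIs, drawn at the level of 3 UMIs. All 3 genes are highest in gamma cells, and Tspan8 and Folr1 are next in delta cells.

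Seen cell by cell, Tspan8 was detected in 91.0%, 92.9% and 93.5% of gamma cells and in 84.8%, 85.5% and 84.0% of delta cells. In alpha cells the share was 18.8%, 14.6% and 19.0% and in beta cells 18.4%, 15.8% and 19.2%, against 6.75%, 6.41% and 8.90% of the shallower endothelial cells (median 2965, 3359 and 2460 UMIs, against 10032, 9134 and 7902 in alpha cells). With every cell thinned to 2000 UMIs, the share in endothelial cells (4.65%, 3.87% and 6.73%) was about that in alpha cells (5.33%, 4.24% and 7.10%) and above that in beta cells (2.88%, 2.10% and 4.12%). In gamma cells it stayed at 48.8%, 55.2% and 65.3%. Thinning left out 1 to 7 gamma cells, 16 to 51 alpha cells, 36 to 59 beta cells and 46 to 129 endothelial cells per library. Thinning was to UMIs of all genes, and insulin fills most of those of a beta cell. In other-gene CPM, Tspan8 was higher in alpha and beta cells than in endothelial cells in every library. The order of beta and endothelial cells in Tspan8 thus depended on the scale. All alpha cells together were slightly higher than endothelial cells on both scales. Alpha cells below 2% Ppy, at 21.3, 21.2 and 34.6 other-gene CPM, were below endothelial cells in every library. These differences from endothelial cells were not tested, nor was the part of free RNA in them. Folr1 differed from Tspan8: after thinning it was found in 9.02% to 10.2% of alpha cells and 4.48% to 5.38% of beta cells, but in 0% to 0.806% of endothelial cells.

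The differences between classes were tested over the 3 libraries with edgeR's quasi-likelihood test on UMIs summed per class and library, with the library as a block and Benjamini-Hochberg adjustment over 13475 genes. Cells are not replicates here, and the 3 libraries differ in genotype, so the p-values measure the spread between these 3 libraries. All 6 genes passed the filter on low counts. Vsig1 passed it only through the gamma sums, where it is high, so its differences between gamma and the other classes are descriptions, not tests. Against alpha cells, 9.7% of genes were called higher in gamma cells and 9.75% lower. Pyy was higher by 1.87 on the log2 scale (SE 0.12, adjusted p = 3.84e-08). Tspan8 was higher by 4.17, Folr1 by 2.69 and Vsig1 by 5.14 (SE 0.48). Each was higher in 3 of 3 libraries. Ghrl did not pass (log2 difference 0.15, adjusted p = 0.898).

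Against beta cells, 17.8% of genes were called higher in gamma cells and 20.9% lower, and the same 4 members were higher. The difference was 6.05 for Pyy, 4.63 for Tspan8, 4.73 for Vsig1 and 3.06 for Folr1 on the log2 scale. Against delta cells, where 11% of genes were called higher and 12.7% lower, the differences in Tspan8 and Folr1 shrank. Tspan8 was higher in gamma cells by 0.92 (SE 0.11, adjusted p = 1.73e-05) and Folr1 by 1.16 (SE 0.11, adjusted p = 1.22e-06), while Pyy was higher by 1.92 and Vsig1 by 4.32. Without the library block, Tspan8 no longer passed in this last comparison (adjusted p = 0.0787).

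Neither polypeptide gene passed the test between delta and alpha cells. In that comparison, 21.1% of genes were called higher in delta cells and 20.7% lower. The log2 difference, delta minus alpha, was 0.23 for Ppy (SE 0.15, adjusted p = 0.249) and -0.05 for Pyy (SE 0.12, adjusted p = 0.755). Without the library labelled ASF-KO, whose alpha cells had the lowest Ppy, the Ppy difference was -0.11, and the sign of the Pyy difference also turned when WT (0.05) or the library labelled SC35-KO (0.07) was left out. With Ppy-rich cells left out of both gates, Pyy was called higher in delta cells by 0.36 (adjusted p = 0.0376). Ppy was higher by 0.56 there, a description only, since Ppy itself chose the cells left out. With no filter on low counts, Ppy passed at 0.20 (adjusted p = 0.021). Tspan8 was higher in delta cells by 3.25 and Folr1 by 1.53, both called, and Vsig1 was not (0.82, adjusted p = 0.381).

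Against beta cells, both delta and alpha cells had more of both polypeptide genes. With 24.6% of genes called higher and 25.8% lower in delta cells, Ppy was higher by 3.23 and Pyy by 4.13, and Tspan8 by 3.71 and Folr1 by 1.90. With 27.7% called higher and 28.5% lower in alpha cells, Ppy was higher by 3.003 and Pyy by 4.18. Tspan8 and Folr1 were called in alpha cells with small differences of 0.46 (adjusted p = 0.00273) and 0.37 (adjusted p = 0.00787). With the Ppy-rich cells left out of alpha and beta, that of Tspan8 turned to -0.37 (adjusted p = 0.0102) and that of Folr1 was lost (0.14, adjusted p = 0.301). Vsig1 was not called between alpha and beta cells, nor was Ghrl between any of the 4 classes.

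Ppy was shared out very differently within each class. Cells with at least 2% Ppy, called Ppy-rich, were 366 of 724, 364 of 629 and 822 of 1533 delta cells, or 50.6%, 57.9% and 53.6%. Of alpha cells, 308 of 1439, 172 of 1498 and 614 of 2850 were Ppy-rich, or 21.4% (exact 95% interval 19.3 to 23.6), 11.5% (9.91 to 13.2) and 21.5% (20.05 to 23.1). Of beta cells, 80, 47 and 96 were, or 1.65%, 1.18% and 1.87%. Endothelial cells were defined without Ppy-rich cells, and 1, 3 and 1 of them passed 0.5%.

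**Figure D3:**
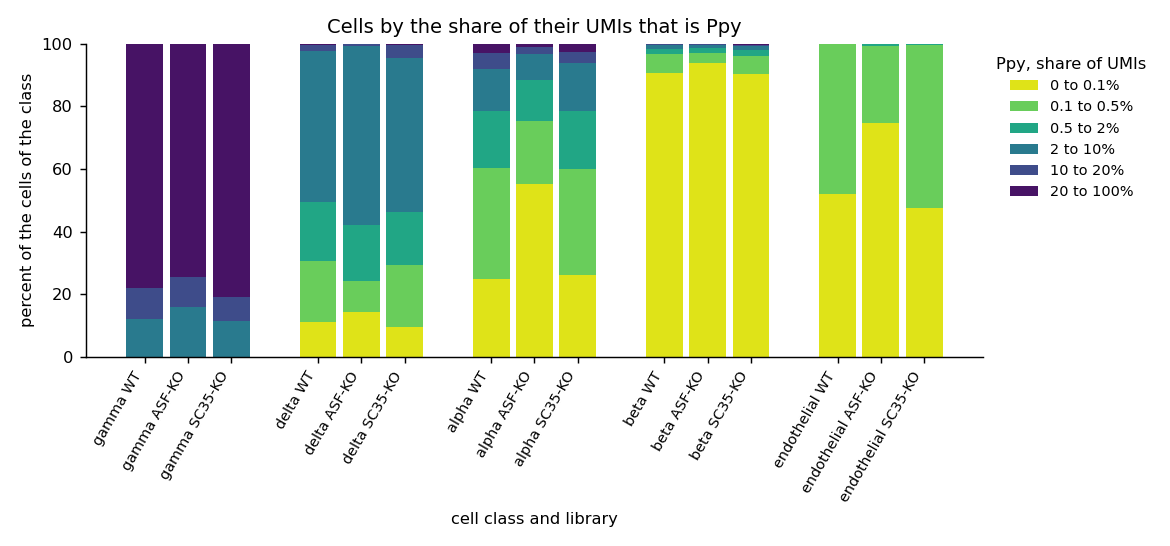
Percent of the cells of each class and library whose share of Ppy UMIs falls in each range, stacked to 100. The range of 2 to 10% Ppy holds 48.2%, 57.1% and 49.2% of delta cells in library order, alpha cells spread over all ranges, and beta and endothelial cells lie almost wholly below 0.5%.

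Delta cells clustered in the middle of the scale. In library order, 349, 359 and 754 of them held 2 to 10% Ppy, only 15, 4 and 62 held 10 to 20%, and 2, 1 and 6 held more. Alpha cells reached further: 40, 16 and 73 held 20% Ppy or more, the range that most gamma cells fill, yet the median alpha cell held 0.247%, 0.0773% and 0.246%. Pyy was more general. At least 1% Pyy, a limit set after the values were seen, was reached by 98.5%, 99.4% and 97.6% of delta cells, by 86.8%, 74.4% and 82.9% of alpha cells and by 3.27%, 3.29% and 3.60% of beta cells. Nearly every Ppy-rich alpha cell was also Pyy-rich (305 of 308, 171 of 172 and 603 of 614).

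The Ppy-rich cells of the alpha, delta and beta gates were then compared with the other cells of the same gate, in a fit to 21 sums over 3 libraries and 12176 genes that was added after the data had been seen. Ppy itself chose the cells and was not tested. In the alpha gate, Ppy-rich cells held 8.81%, 8.39% and 7.49% Pyy against 3.40%, 2.69% and 2.91% in the other cells. Tspan8 stood at 134, 167 and 229 other-gene CPM against 21.3, 21.2 and 34.6, and Folr1 at 158, 169 and 151 against 62.9, 75.5 and 61.7. For all 3 genes, the lowest Ppy-rich value was above the highest value of the other alpha cells.

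Of all genes, 0.296% were called higher in Ppy-rich alpha cells (36 genes) and 0.197% lower (24 genes). Apart from Ppy, Tspan8 led with a log2 difference of 2.79 (SE 0.11, adjusted p = 1.75e-15), followed by Pyy at 1.68 (SE 0.12, adjusted p = 9.74e-10) and Folr1 at 1.28 (SE 0.11, adjusted p = 2.05e-08). The next called higher were Depp1 (1.59), Mdga2 (3.96), Fxyd3 (1.21), a subunit that modulates the sodium pump, and Cabp7 (2.31). Among those called lower were Dpp10 (-0.97), Olfm1 (-1.37) and Negr1 (-0.81). The alpha cell hormone gene Gcg differed by -0.16, a description only, since both sides had to hold at least 3% Gcg to enter the gate. Vsig1, with 2, 1 and 4 UMIs in Ppy-rich alpha cells, did not pass (2.74, adjusted p = 0.229). Without WT, without the library labelled ASF-KO and without the one labelled SC35-KO, 38, 28 and 11 genes were called in place of these 60, and Tspan8, Pyy and Folr1 passed each time.

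In the delta gate, the same split separated little besides Ppy. Ppy-rich delta cells held 4.87%, 5.06% and 4.63% Pyy against 4.57%, 5.18% and 4.25%, with overlapping groups. Tspan8 was at 530, 616 and 827 other-gene CPM against 434, 480 and 634, and Folr1 at 266, 340 and 280 against 261, 352 and 251. Only 0.0493% of genes were called higher (6) and 0.00821% lower (1), and Pyy (log2 difference 0.12, adjusted p = 1), Tspan8 (0.36, adjusted p = 0.778) and Folr1 (0.06, adjusted p = 1) were not among them. Among the 6 were Ppy and 4 hemoglobin genes, and the 1 was Pdyn (-1.12, adjusted p = 0.0313), the prodynorphin gene. Of the 2473 hemoglobin UMIs in Ppy-rich delta cells of the library labelled ASF-KO, 2452 were in 1 cell, and in the library labelled SC35-KO 2 cells held 10 or more of 2166.

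The alpha and delta splits differed from each other by a direct test of the difference. Of all genes, 0.0657% were called higher and 0.0329% lower in the alpha difference minus the delta difference, and Pyy (1.56, adjusted p = 6.61e-06), Tspan8 (2.43, adjusted p = 4.99e-11) and Folr1 (1.22, adjusted p = 2.83e-05) were among the former. Without the library block, the adjusted p was 0.202 for Pyy, 0.0961 for Tspan8 and 0.0786 for Folr1, so these 3 calls rest on the block.

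In the beta gate the split was the widest. Pyy filled 3.46%, 3.31% and 3.69% of the UMIs of Ppy-rich beta cells, against 0.0811%, 0.0766% and 0.0811% in the other beta cells. Tspan8 stood at 322, 334 and 608 other-gene CPM against 31.5, 31.4 and 60.3, Folr1 at 315, 471 and 382 against 66.2, 85.05 and 69.8, and Vsig1 at 4, 3 and 5 UMIs among 80, 47 and 96 cells. Of all genes, 3.08% were called higher (375) and 2.42% lower (295). Pyy (5.14), Tspan8 (3.38) and Folr1 (2.40) were higher. Vsig1 was higher by 4.01, a description only, since it passed the count filter only through gamma and Ppy-rich beta sums. Among the 295 called lower were the glucose transporter gene Slc2a2 (-1.42), G6pc2 (-1.36), the regulator Mafa (-1.39) and Ucn3 (-0.83), chosen after their values were seen. Iapp, another gene of beta cells, did not pass (-0.36, adjusted p = 0.216). Without WT 336 genes were called in this split and without the library labelled SC35-KO 232, in place of 670.

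Several measures of mixed cells moved with that split in the beta gate. Insulin filled 38.9%, 44.1% and 40.3% of the UMIs of Ppy-rich beta cells against 53.5%, 63.8% and 63.4% in the others. The median doublet score was 0.0906, 0.0814 and 0.0690 against 0.0652, 0.0627 and 0.0536, and Gcg was higher by 1.66 (adjusted p = 0.00456). In the alpha gate the scores were closer, 0.0285, 0.0340 and 0.0372 against 0.0271, 0.0321 and 0.0358. In the delta gate they were 0.0193, 0.0165 and 0.0222 against 0.0166, 0.0165 and 0.0207. Cells called doublets had been removed, and the part of the remaining ones in these differences was not tested.

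**Figure D4:**
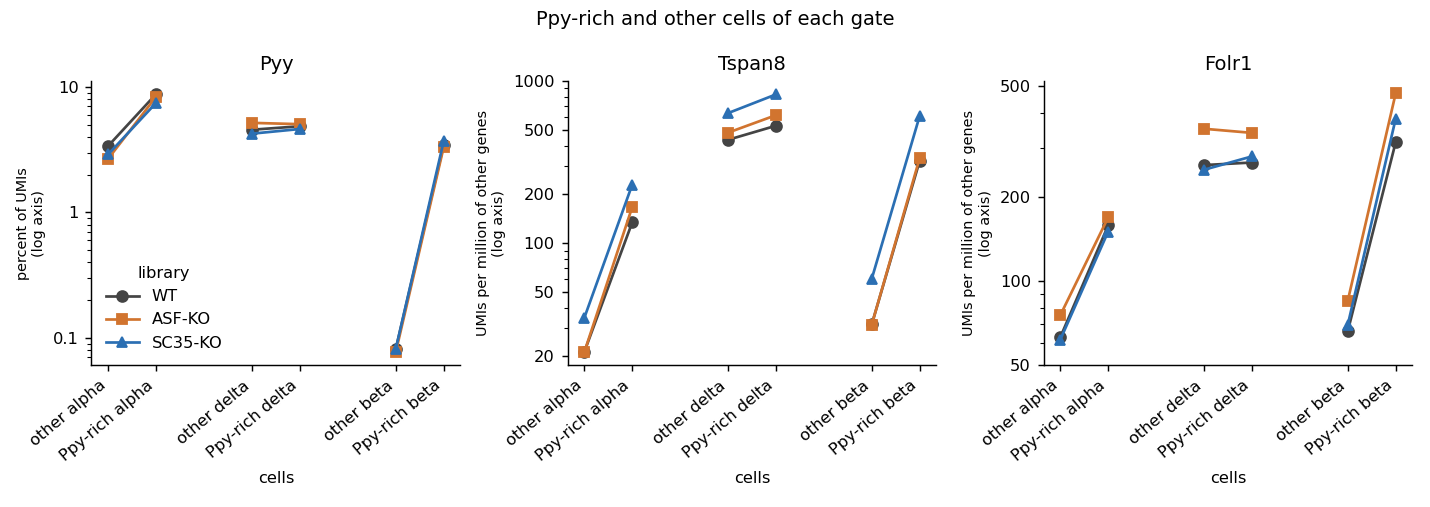
Pyy (percent of UMIs), Tspan8 and Folr1 (other-gene CPM) in cells below and above 2% Ppy within the alpha, delta and beta gates, on log axes, 1 line per library. All 3 genes are higher in the Ppy-rich cells of the alpha and beta gates in every library. The delta lines of Pyy and Folr1 are nearly flat, and those of Tspan8 rise in every library but less than in the alpha and beta gates.

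Gamma cells still differed from the Ppy-rich cells of the other gates. Against Ppy-rich alpha cells, 5.52% of genes were called higher in gamma cells and 5.7% lower. Pyy was higher by 0.68 (SE 0.12, adjusted p = 0.000165), Folr1 by 1.75 and Tspan8 by 2.44. Vsig1 was higher by 3.46, again a description only because of the count filter. Gcg, which the gates use, was lower by construction. Against Ppy-rich beta cells, with 6.47% called higher and 8.32% lower, Pyy was higher by 1.61, Tspan8 by 1.49 and Folr1 by 0.79. Vsig1 did not pass there (1.08, adjusted p = 0.143).

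The gamma gate cut few cells near its edge. In library order 14, 5 and 16 gamma cells held 2 to 4% Ppy, and 17, 1 and 23 cells of no class held 1 to 2%. Within the gate, cells with 10% Ppy or more held Tspan8 at 865, 961 and 1761 other-gene CPM, and the 35, 20 and 37 cells with 2 to 10% held 332, 479 and 616. Folr1 did not follow that order, at 603, 639 and 581 against 675, 531 and 577. A further 18, 21 and 21 cells below all 4 gates were Pyy-rich, with a median of 4.31%, 2.67% and 3.89% Pyy and 0.715%, 0.157% and 0.646% Ppy. They held Folr1 at 526, 477 and 853 other-gene CPM, near the gamma level, and Tspan8 at 407, 117 and 364.

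Ghrl was limited to single barcodes. In WT, 1 kept cell gave 8136 of its 17255 UMIs, or 47.2%, to Ghrl. That cell held 138 UMIs of the granule gene Chga and 1 UMI of Mboat4, the enzyme that acylates ghrelin. It held 13 UMIs of Ppy and 7 of Pyy and none of Tspan8, Vsig1 or Folr1, and insulin filled 1.21% of its UMIs. Ttr and Chga were among its most abundant genes after Ghrl.

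The library labelled SC35-KO kept no cell with 0.5% Ghrl or more, and the one labelled ASF-KO had no Ghrl UMI in any of its 12496 barcodes. A count of 0 among 7082 kept cells allows a share of up to 0.0424% of cells with a Ghrl UMI. Outside the rich barcodes, 317 WT cells and 361 cells of the library labelled SC35-KO held 1 to 3 Ghrl UMIs, 0.0834% and 0.0991% of a cell's UMIs at most. In WT these UMIs were spread over alpha (2.43% of cells), beta (4.65%), delta (1.66%), gamma (3.46%), endothelial (1.38%) and immune cells (3.70%). Endothelial and immune cells, which should lack the gene, stood at 4.18 and 7.36 CPM over all genes, above the 2.12 to 2.41 CPM of the 4 endocrine classes, and the part of free RNA was not tested. With 1 library per genotype, a rare cell that was not captured and a cell type that is absent cannot be told apart.

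Between genotypes there is no test, since each has 1 library. Ratios to WT are given with exact 95% intervals that cover counting error only, and a gene counts as past the fold when it differs from the median gene of its class by at least 1.5-fold, among genes with at least 10 CPM over all genes in 1 of the 2 libraries. The median gene itself was shifted against WT, to 0.741 and 0.740 in beta cells of the libraries labelled ASF-KO and SC35-KO, 1.05 and 0.875 in alpha cells, and 1.29 and 0.938 in gamma cells. In delta cells it was level with WT (log2 shifts of 0.0146 and 0.00727). In the library labelled ASF-KO, 4.34% of alpha cell genes were past the fold higher and 6.79% lower, and Ppy was among the latter. It stood at 0.506 of WT in alpha cells (0.504 to 0.509), or 0.481 relative to the median gene. Pyy in the same cells stood at 0.740 (0.737 to 0.742) and was not past the fold.

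In beta cells of that library, 9.04% of genes were past the fold higher and 8.1% lower, and Ppy stood at 0.396 of WT, or 0.534 relative to the median gene. Ppy in endothelial and immune cells of the same library was also lower, at 0.622 (0.578 to 0.670) and 0.690 (0.547 to 0.860) of WT. Ppy-rich cells were 11.5% of its alpha cells against 21.4% in WT. In alpha cells below 2% Ppy, the gene took 0.240% of UMIs against 0.384%. In gamma cells, 8.43% of genes were past the fold higher and 11% lower, and Ppy, which the gate uses, stood at 0.831 of WT, or 0.643 relative to the median gene. In delta cells, with 5.49% higher and 7.81% lower, no member was past the fold. Ppy stood at 0.957 and Pyy at 1.08 (1.077 to 1.089) of WT there.

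In the library labelled SC35-KO, the member that moved was Tspan8. With 2.48% of alpha cell genes past the fold higher and 2.78% lower, it stood at 1.53 of WT (1.37 to 1.71), or 1.75 relative to the median gene. In beta cells, with 3.51% higher and 2.55% lower, it stood at 1.41 (1.32 to 1.51), or 1.90 relative to the median gene. In gamma cells, with 4.97% higher and 6.73% lower, it stood at 1.71 (1.60 to 1.83), or 1.82 relative to the median gene. In delta cells, with 3.2% higher and 3.95% lower, it stood at 1.43 (1.36 to 1.51) and fell short of the fold. Tspan8 was also higher in the endothelial cells of that library, at 1.69 of WT with a lower 95% bound of 1.13, and the part of free RNA in the other ratios was not tested. Pyy stood at 0.943 of WT in delta cells and Folr1 at 0.797 (0.728 to 0.872) in gamma cells, neither past the fold. Vsig1 was under 10 CPM everywhere and got no such call.

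**Figure D5:**
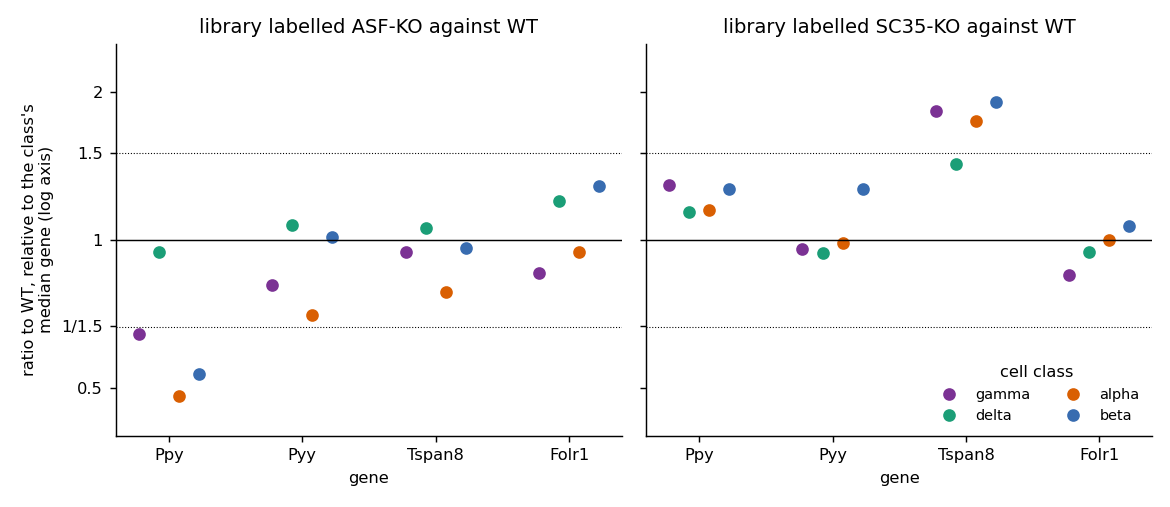
Ratio to WT of Ppy, Pyy, Tspan8 and Folr1 in gamma, delta, alpha and beta cells of the libraries labelled ASF-KO (left) and SC35-KO (right), relative to the median gene of the class, on a log axis with dotted lines at 1.5-fold. Ppy lies below the lower line in gamma, alpha and beta cells on the left, Tspan8 lies above the upper line in the same 3 classes on the right, and no delta value is outside the lines.

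Gamma cells were 3.87% of endocrine cells in WT (289 of 7468), 2.001% in the library labelled ASF-KO (126 of 6296) and 3.21% in the library labelled SC35-KO (321 of 9988). Endocrine cells here were the alpha, beta, delta and gamma cells with 158, 63 and 144 cells that passed 2 or more of the insulin, Gcg and Sst gates. The difference from WT was -1.87 percentage points (95% interval -2.43 to -1.31) and -0.656 points (-1.22 to -0.104), counting error only. Ppy in free RNA, read from endothelial cells, was lowest in the same library that had the fewest gamma cells, and its part in the ratios to WT was not tested. A gate without Ppy asked for cells below the gates of the other 3 hormones with UMIs of the granule genes Chga, Chgb and Scg2. It left out cells with endothelial or immune markers. This gate held 410, 210 and 413 cells, of which 68.3%, 58.1% and 72.4% were Ppy-rich. With that gate the difference of the library labelled SC35-KO from WT was -1.31 points, and with all gates doubled -1.23 points.

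The partners of these peptides ranged from abundant processing enzymes to receptors with no UMI. Of 13 receptor, enzyme and ligand genes, 7 could be tested. Compared with alpha cells, 3 were higher and 3 lower in gamma cells (median log2 difference -0.52, against -0.02 over all genes), compared with beta cells 1 and 4, and compared with delta cells 3 and 3. Of all genes, 9.7% were called higher and 9.75% lower than in alpha cells, 17.8% and 20.9% than in beta cells, and 11% and 12.7% than in delta cells. The most abundant was Pcsk2, a prohormone convertase gene, at 8286, 7964 and 5339 other-gene CPM in gamma cells, followed by Cpe, which trims the cut peptides, at 2325, 1924 and 2253, and Pam, which amidates them, at 597, 741 and 836. All 3 were lower in gamma than in alpha cells (-0.52, -0.58 and -0.59). Ghsr, the ghrelin receptor, stood at 31.0, 39.1 and 31.3 other-gene CPM in delta cells and at 1.04, 2.42 and 1.41 in gamma cells, a log2 difference of -4.38. Ghsr, counted among the 7, passed the count filter only because of delta cells, where it is high, so that difference is a description. Pcsk1, which cuts prohormones, was at 62.6, 138 and 59.3 in gamma cells, between alpha cells (6.95, 11.1 and 10.6) and beta cells (325, 794 and 419). The Y receptor genes Npy2r, Npy4r, Npy5r and Npy6r had no UMI in the 4 endocrine classes. Npy, the third gene of the PP-fold family, had no UMI in gamma cells, which allows up to 1.55, 3.63 and 2.12 other-gene CPM, and stood at 16.9, 15.3 and 12.4 in delta cells and 12.3, 5.68 and 8.43 in beta cells.

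Of 18 endocrine transcription factor genes, 17 were tested. In gamma cells 5 were higher and 7 lower than in alpha cells (median log2 difference -0.11, against -0.02 over all genes), 9 and 5 than in beta cells, and 8 and 5 than in delta cells, to be read against the same shares of all genes. Irx1 (-4.20) and Irx2 (-2.57) were lower than in alpha cells. Nkx6-1 was higher, at 164, 144 and 141 other-gene CPM against 34.1, 29.95 and 35.9 (1.99), as was Pdx1 (2.68), both best known from beta cells. Of 12 other peptide hormone genes 6 were tested, to be read against the same shares of all genes. In gamma cells 2 were higher and 0 lower than in alpha cells (median log2 difference -0.36, against -0.02 over all genes). The counts were 0 and 3 compared with beta cells, and 1 and 2 compared with delta cells. Those higher than in alpha cells were Iapp (2.51) and Ucn3 (0.95). Ucn3 stood at 55.9, 31.5 and 39.6 other-gene CPM in gamma cells and 33.7, 29.97 and 21.2 in endothelial cells. The part of free RNA in its difference was not tested.

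Likeness of pattern was measured as the Pearson correlation of log2(CPM + 1) over the 12 sums of class and library, among 6885 genes at 20 CPM or more in at least 1 sum. The 12 points share libraries and depth, so the values are a description. Most like Ppy were Hilpda (0.952), Depp1 (0.942), Pyy (0.926), Spp1 (0.915) and Folr1 (0.883), with Tspan8 in rank 12 (0.843). Most like Pyy were Uchl1 (0.979), Rcn3 (0.970), Plin3 (0.962), Hilpda (0.960) and Serpinh1 (0.950), with Ppy in rank 18 and Tspan8 in rank 325.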

How the data were processed

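The authors deposited 1 matrix of UMI counts per library, raw whole numbers per gene and barcode. Per the submitters' processing notes, Cell Ranger 5.0.0, STAR and Seurat were used with build mm10. How introns or strand were handled is not given in the sources used here, so Ghrl, Tspan8 and Folr1, which overlap genes on the other strand, may hold reads of those. From these counts, barcodes were kept from 500 genes and 1000 UMIs upward if mitochondrial UMIs did not exceed 20%, and Scrublet (scanpy 1.11.5, seed 0) removed 3.13%, 4.31% and 7.58% as doublets. Endothelial cells needed 3 of 8 markers and immune cells Ptprc with 2 of 5 others. Other-gene CPM leaves Ins1, Ins2, Gcg, Sst, Ppy, Pyy, Iapp and mitochondrial genes out of the total.

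Class contrasts used edgeR 4.0.16 in R 4.3.3 (TMM, filterByExpr, quasi-likelihood, 12 sums, class plus library, 6 residual degrees of freedom) with a call at adjusted p under 0.05. Libraries pair the classes, since each gives every class: deviations of 2 classes from the class means correlated at 0.478 to 0.761 in all 18 pairs. Tested on simulated data for gamma minus alpha (13139 genes), the fit recovered 79.4% of 2-fold and 93.9% of 4-fold changes and called 0.0695% of unchanged genes. The simulated counts had the same dispersion (0.011) for every gene and no library effect. Apart from the changed genes, they had the same means in every class. The real sums differ in all of this, so these rates hold for the simulated setting only. The members and gene lists were chosen with earlier results of these data known. Named were the members in full, up to 4 genes per list by size of change, and the 5 genes most like Ppy and Pyy, and some genes these rules take are not reported here. DESeq2 1.42.0, other scalings, gates, filters, doublet handling, the library block and leaving out each library were the alternatives. The limits at 1% Pyy and the comparison of Ppy-rich with other cells, with its alternatives, were added after seeing the data.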

Additional observations from a re-analysis of the deposited data

Results flagged for a closer look

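2 barcodes of the library labelled SC35-KO held much Ghrl but entered no comparison. The first passed the cell filter and was called a doublet by Scrublet (score 0.207, against 0.158 for the Ghrl-rich cell kept in WT). Ghrl made up 35.7% of its UMIs (3668 of 10283), with 52 UMIs of Chga, 7 of Ppy and none of Tspan8, Vsig1 or Folr1. The second was removed by the filter with 22.3% mitochondrial UMIs, and Ghrl made up 16.0% of its 1464 UMIs (234). A barcode with 3 Ghrl UMIs of 577 was removed as well. With all of them counted, WT had 1 Ghrl-rich barcode, the library labelled SC35-KO had 3 and the one labelled ASF-KO had 0.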

How the results depend on the processing

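Of 351 values of single members in the class contrasts under the alternatives, 336 kept direction and side of the threshold, 6 lost the call, 2 gained it and 7 turned. Values that turned were Tspan8 in alpha minus beta (-0.37) and Pyy in delta minus alpha (0.36, adjusted p = 0.0376) without Ppy-rich cells and Vsig1 in alpha minus beta with gates doubled (0.0543). With 1 library left out, Ppy in delta minus alpha ranged from -0.11 (without ASF-KO) to 0.41, Pyy there from -0.26 to 0.0668 and Vsig1 in delta minus beta from -0.20 (without ASF-KO) to 0.73. Ppy in delta minus alpha gained a call without Ppy-rich cells (0.56), where Ppy itself chose the cells left out, so that call is not a test. It also gained a call with no filter on low counts (0.20, adjusted p = 0.021). Folr1 in alpha minus beta also lost its call with no replicate block (adjusted p = 0.0738), without WT (0.0529) or without SC35-KO (0.124), and Tspan8 there with no block (0.317). With gates halved, Folr1 in Ppy-rich delta minus other delta was -0.0099. The causes were not tested.

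With no replicate block, the genes called fell from 2621 to 1242 (gamma minus alpha), 5214 to 3281 (gamma minus beta), 3189 to 1789 (gamma minus delta), 5639 to 3320 (delta minus alpha), 6797 to 4320 (delta minus beta) and 7573 to 4790 (alpha minus beta), and in the Ppy-rich splits to 10 (alpha), 2 (delta), 224 (beta) and 1 (alpha difference minus delta difference). Leaving out 1 library, which leaves fewer sums, gave 1258 to 2326, 3179 to 5118, 1716 to 3043, 3582 to 5435, 4704 to 6661 and 5249 to 7388 in that order of contrasts, and 11 to 38, 5 to 5, 232 to 645 and 8 to 13 in that order of splits. The lowest came without SC35-KO in gamma minus alpha, beta and delta and in the alpha and beta splits, and without WT gamma minus alpha gave 1516 and gamma minus delta 2031. A gamma gate without Ppy called 4397 genes in gamma minus alpha. Doubled gates called 1 gene in the delta split and 268 in the beta split, and halved gates 5 in the difference. The gamma share against WT was -2.66 points (ASF-KO) and -1.23 points (SC35-KO) with gates doubled, and -1.31 points (SC35-KO) with the gate without Ppy. Pyy in delta cells against WT was 1.08 (gates doubled), 1.13 (without Ppy-rich cells), 1.17 (scaling without hormones and mitochondrial genes) and 1.09 (median-of-ratios scaling) for ASF-KO, and 0.930, 0.930, 1.004 and 0.930 for SC35-KO, so its direction in the latter depends on the scaling. Of 196 ratios to WT, 97 moved beyond their interval. Depth limits Vsig1, with 1 to 29 UMIs per endocrine class and library, and Ghrl outside its rich barcodes.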
